A study of Mus musculus with 28 samples.

Results

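The genes described here are 10 members of the unfolded protein response and the integrated stress response: Atf4, Ddit3, Trib3, Asns, Chac1, Hspa5, Xbp1, Dnajb9, Herpud1 and Sdf2l1. They were chosen by name, as the rows with these symbols in both deposited count matrices, and all 10 were found among the 55341 gene names of each matrix. RNA had been sequenced from 28 subcutaneous AB1-HA mesothelioma tumors, 1 per mouse, to compare chemotherapy, immune checkpoint blockade (ICB) and their combinations. Every mouse was a BALB/c.AusBP animal, female and 8 to 10 weeks old by the study's methods, and every tumor was grown from the same mouse mesothelioma line, so the groups differed in treatment and not in genotype. Treatment began at a tumor area of 20 to 25 mm2 and whole tumors were taken on day 7. The PBS group (4 tumors) received vehicle. The ICB group (5 tumors) received anti-CTLA-4 and anti-PD-L1 antibodies at 100 µg each, as 1 dose of the former and 3 of the latter. The 5-FU group (5 tumors) received 5-fluorouracil at 75 mg/kg intravenously and the Cisplatin group (4 tumors) received cisplatin at 6 mg/kg intraperitoneally. The 5-FU+ICB and Cisplatin+ICB groups (5 tumors each) received a chemotherapy at the same dose together with the antibodies. The tumors were whole tissue that held the grafted line and the cells of the host, and a single line cannot stand for mesothelioma in general.

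Cells detect unfolded protein in the endoplasmic reticulum (ER) through the membrane sensors PERK, IRE1 and ATF6. PERK and its sister kinases, which respond to amino acid shortage, heme shortage and double-stranded RNA, phosphorylate the initiation factor eIF2, and translation slows while the mRNA of the transcription factor ATF4 is translated more. ATF4 and its partner CHOP then induce genes of amino acid supply, and ATF6 and spliced XBP1 induce chaperones and degradation factors of the ER. Tumor cells are known users of both arms, and secretory immune cells such as plasma cells of the ER arm. By role, Atf4, Ddit3 (which encodes CHOP), Trib3, Asns and Chac1 belong to the ATF4 arm, and Hspa5, Xbp1, Dnajb9, Herpud1 and Sdf2l1 to the ER arm.

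Short promoter stretches are shown, as a description, for the 5 members in which a motif of either arm was found. The part of these motifs in the levels of the members was not tested. The window was 250 bases before to 50 bases after the RefSeq start of each gene (GRCm38.p6), all 10 members had one, and both strands were searched. The amino acid response element core was spelled TGATGNAA, the ER stress element (ERSE) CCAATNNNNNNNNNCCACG, ERSE-II as ATTGG and CCACG with 1 base of any kind between them, and the UPR element core TGACGTG. Of 32851 mouse promoters of the same length, 3.97% held the first, 0.119% the second, 0.0365% the third and 2.01% the fourth. In the stretches below, given 5′ to 3′ on the strand of the gene, the capitals mark the match.
Trib3, amino acid response element core on the opposite strand, chr2:152344028-152344057, minus strand: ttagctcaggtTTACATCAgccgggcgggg
Asns, amino acid response element core, chr6:7693214-7693243, minus strand: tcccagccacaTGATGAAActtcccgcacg
Chac1, amino acid response element core on the opposite strand, chr2:119351023-119351082, plus strand: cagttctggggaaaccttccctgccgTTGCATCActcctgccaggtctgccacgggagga
Herpud1, amino acid response element core on the opposite strand, chr8:94386291-94386350, plus strand: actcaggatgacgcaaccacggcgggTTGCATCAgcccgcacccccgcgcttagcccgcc
Herpud1, ERSE-II, chr8:94386353-94386412, plus strand: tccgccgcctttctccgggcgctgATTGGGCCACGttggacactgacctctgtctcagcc
Hspa5, ERSE, chr2:34772020-34772049, plus strand: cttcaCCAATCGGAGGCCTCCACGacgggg
Hspa5, UPR element core, chr2:34771907-34771966, plus strand: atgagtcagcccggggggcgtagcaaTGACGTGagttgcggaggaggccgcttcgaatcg

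The amino acid response element core thus lay in the promoters of 4 members: Trib3, Asns, Chac1 and Herpud1. Counted from the first transcribed base, it began at position 15 in Trib3, at -23 in Asns, at -193 in Chac1 and at -112 in Herpud1. The ERSE of Hspa5 began at -65 and the ERSE-II of Herpud1 at -52. For Atf4, Ddit3, Xbp1, Dnajb9 and Sdf2l1 these letters were not in the window, which says nothing about the factors. A match is a sequence description and not a measured binding site.

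Each tumor had between 23541733 and 33950805 estimated counts, and the members ranged from 51 counts (Trib3) to 33304 counts (Hspa5) in a tumor, so none was near the floor of 3 counts. All 10 members passed the filter on low counts, which left 17916 genes in the fit of PBS, ICB and both 5-FU groups, 17819 in that of PBS, ICB and both cisplatin groups, and 18521 in the fit of all 28 tumors. Levels below are in CPM, a gene's count scaled to a common library total after TMM normalization, and a gene was called where edgeR's quasi-likelihood test gave a Benjamini-Hochberg adjusted p under 0.05 over all genes and an absolute log2 fold change over 0.5. A pair of tumors stood apart. Cisplatin+ICB replicate 1 held the highest level of 5 of the 10 members, and 5-FU+ICB replicate 5 the highest of 3. Leaving out Cisplatin+ICB replicate 1 raised the calls over all genes in Cisplatin+ICB against PBS from 837 higher and 250 lower to 3236 and 3041. Calls of members that rest on these tumors are given with and without them. The mesothelial marker list had 5 of its 6 genes above the filter, and its summed level was 1110.2 to 1329 CPM in PBS tumors, 365 to 721 in ICB, 680.2 to 1157 in 5-FU and 386 to 973 in 5-FU+ICB. Single genes of this list did not all fall. Against PBS, 1 was called higher and 1 lower with ICB, 1 and 0 with 5-FU, and 3 and 2 with 5-FU+ICB. The list medians were 0.21, 0.42 and 0.61 on the log2 scale.

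Genes of the ATF4 arm were lower with 5-FU, alone or with ICB. Of the 10 members, 4 fell in 5-FU against PBS (Trib3, Chac1, Asns and Atf4) and none rose, where 13.0% of all genes tested were called lower and 9.98% higher. These 2327 lower and 1788 higher calls became 1290 and 629 without PBS replicate 1, 755 and 681 without PBS replicate 2, 1886 and 1061 without 5-FU replicate 3, and 1558 and 954 without 5-FU replicate 5, and 2 members were called in each of these fits. The same 4 fell with 5-FU+ICB, where Sdf2l1 and Herpud1 rose, and 18.7% of all genes were called lower and 21.9% higher. The medians of the 10 log2 fold changes were -0.36 for 5-FU and -0.14 for 5-FU+ICB, beside -0.01 and -0.04 over all genes. These comparisons share the PBS tumors. In bulk tissue, fewer cells of a type and less RNA per cell cannot be told apart.

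**Figure D1:**
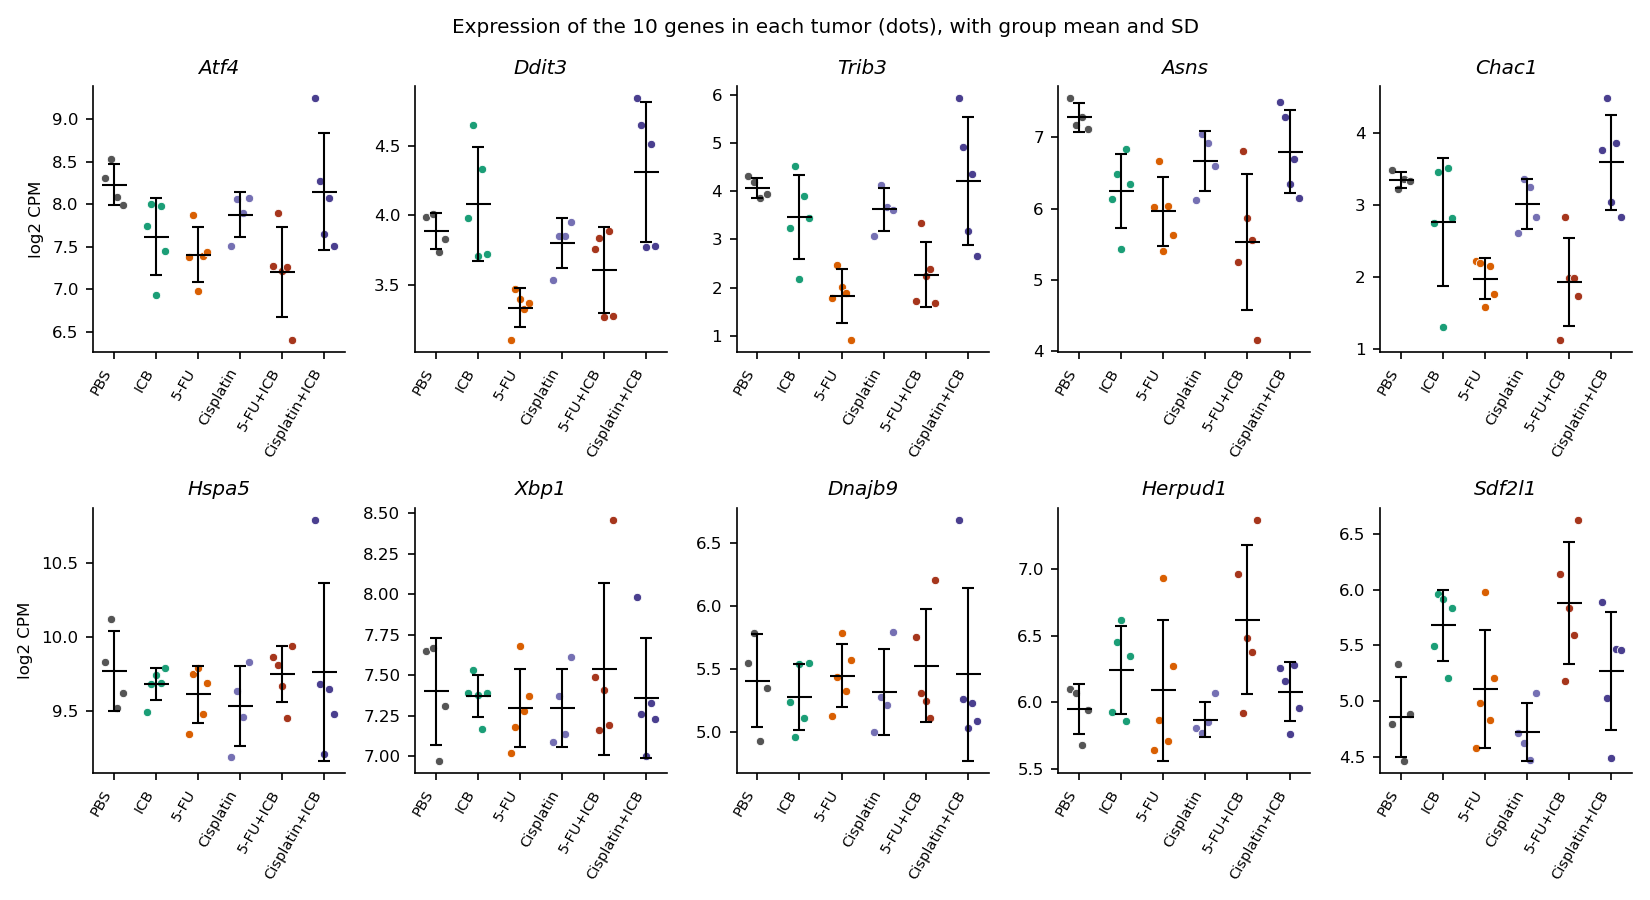
Level of each of the 10 genes in every tumor as log2 CPM (y axis), by treatment group (x axis). Dots are tumors and the black bars are the group mean ± SD. In the top row, the 5-FU tumors of Trib3, Chac1, Asns, Atf4 and Ddit3 all lie below the PBS tumors, and in the bottom row Cisplatin+ICB replicate 1 lies highest for Hspa5 (1766 CPM) and Dnajb9 (103 CPM).

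Trib3 encodes a pseudokinase that is induced by ATF4 and CHOP and in turn restrains them, and it had the largest fold change of the 10 members under 5-FU. The PBS tumors had 19.7, 18.2, 14.4 and 15.3 CPM. The 5-FU tumors had 3.40, 5.43, 3.96, 3.64 and 1.83 CPM, and the 5-FU+ICB tumors 3.24, 9.98, 4.66, 5.14 and 3.15 CPM. Every tumor of both groups was below every PBS tumor. Trib3 was 4.64-fold lower with 5-FU (log2 fold change -2.21 ± 0.41 SE, edgeR adjusted p = 0.00375) and 3.21-fold lower with 5-FU+ICB (-1.68 ± 0.41 SE, edgeR adjusted p = 0.00398). Both calls held without any 1 of the 19 tumors of the fit, with log2 fold changes of -2.40 to -2.05 and of -2.03 to -1.55. The ICB tumors spread from 4.46 to 23.0 CPM across the PBS range, and Trib3 was not called there (-0.41 ± 0.40 SE, edgeR adjusted p = 0.424). The group means rose from 3.65 CPM in 5-FU through 5.23 in 5-FU+ICB, 12.5 in ICB, 12.6 in Cisplatin and 16.9 in PBS to 25.3 in Cisplatin+ICB, and the tumors of each neighbouring pair in this order overlapped.

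Chac1 encodes an enzyme that degrades glutathione and is a target of the ATF4 arm. It was at 11.2, 9.25, 10.2 and 10.1 CPM in the PBS tumors. It was at 4.60, 4.49, 2.94, 4.37 and 3.33 CPM in the 5-FU tumors and at 2.12, 7.04, 3.89, 3.90 and 3.25 CPM in the 5-FU+ICB tumors. Neither group overlapped with PBS. The level was 2.56-fold lower with 5-FU (log2 fold change -1.36 ± 0.36 SE, edgeR adjusted p = 0.0136) and 2.49-fold lower with 5-FU+ICB (-1.31 ± 0.36 SE, edgeR adjusted p = 0.00764), and both calls held without any 1 tumor of the fit. ICB alone gave 6.68, 10.9, 2.41, 11.4 and 6.99 CPM, which lay on both sides of the PBS tumors (log2 fold change -0.37 ± 0.35 SE, not called).

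Asns encodes asparagine synthetase, the enzyme that makes asparagine from aspartate. The PBS tumors had 187, 144, 155 and 138 CPM. The ICB tumors had 70.5, 88.9, 43.0, 114 and 80.9 CPM, the 5-FU tumors 64.9, 102, 42.3, 65.9 and 49.6 CPM, and the 5-FU+ICB tumors 38.0, 112, 58.3, 47.0 and 17.9 CPM. All 15 of these tumors were below the lowest PBS tumor, as was so for 19.6% of all genes in ICB. Asns was 2.40-fold lower with 5-FU (log2 fold change -1.26 ± 0.37 SE, edgeR adjusted p = 0.0220) and 2.85-fold lower with 5-FU+ICB (-1.51 ± 0.37 SE, edgeR adjusted p = 0.00462). With ICB it was 1.93-fold lower, just inside the threshold (-0.95 ± 0.37 SE, edgeR adjusted p = 0.0483). The 5-FU+ICB call held without any 1 of 19 tumors. The 5-FU call was lost without PBS replicate 1 (-1.14, edgeR adjusted p = 0.0720), PBS replicate 2 (-1.28, 0.0600), 5-FU replicate 3 (-1.14, 0.0534) or 5-FU replicate 5 (-1.18, 0.0567), and with no filter on low counts (0.0519). The ICB call was kept in 5 of 19 such fits, with log2 fold changes of -1.11 to -0.79 and edgeR adjusted p of 0.0181 to 0.124, and it was lost without any 1 of the PBS tumors, of ICB replicates 1, 2, 3 and 5, of 5-FU replicates 1, 4 and 5, or of 5-FU+ICB replicates 1, 3 and 4. It was lost as well with DESeq2's size factors, with either other filter on low counts, with the replicate block and with all 28 tumors in a single model (edgeR adjusted p of up to 0.106).

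Atf4 itself encodes the transcription factor at the centre of the integrated stress response, whose activity is set largely by translation and so is only partly seen in RNA. The PBS tumors had 318, 370.4, 272 and 255 CPM, the 5-FU tumors 167, 235, 126, 167 and 174 CPM, and the 5-FU+ICB tumors 155, 238, 149, 154 and 85.2 CPM. Both groups lay below PBS without overlap. The level was 1.75-fold lower with 5-FU (log2 fold change -0.81 ± 0.26 SE, edgeR adjusted p = 0.0305) and 1.94-fold lower with 5-FU+ICB (-0.96 ± 0.26 SE, edgeR adjusted p = 0.00754). The 5-FU+ICB call held without any 1 tumor. The 5-FU call was lost without PBS replicate 1 (-0.77), PBS replicate 2 (-0.67), or 5-FU replicates 1 (-0.79), 3 (-0.72), 4 (-0.79) or 5 (-0.81), and also with no filter on low counts or with all 28 tumors in a single model (edgeR adjusted p of up to 0.0989). Under ICB the tumors had 216, 257, 122, 252 and 175 CPM, and the difference was not called (-0.56 ± 0.26 SE, edgeR adjusted p = 0.0917).

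Ddit3 encodes CHOP, a transcription factor linked to cell death under long stress. The PBS tumors had 15.8, 16.1, 13.3 and 14.2 CPM and the 5-FU tumors 8.57, 11.0, 10.5, 10.0 and 10.3 CPM, without overlap, yet the difference was just outside the threshold (log2 fold change -0.56 ± 0.21 SE, edgeR adjusted p = 0.0544). It was 9.61 to 14.8 CPM with 5-FU+ICB (-0.25 ± 0.21 SE) and 13.0 to 25.1 CPM with ICB (0.26 ± 0.21 SE), neither called. In all, 5 members had 5-FU tumors entirely below the PBS tumors, where 14.4% of all genes did, and 4 had 5-FU+ICB tumors entirely below, where 13.0% did. The annotation holds 3 other entries whose exons overlap those of Ddit3. Mars, the methionyl-tRNA synthetase gene, and Gm4189 lie on the opposite strand, and the strandedness of the libraries is not given in the sources used here. The other is a protein-coding entry on the same strand that is also named Ddit3, and the deposited values have 1 row of that name, so the Ddit3 levels are uncertain for both reasons.

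**Figure D2:**
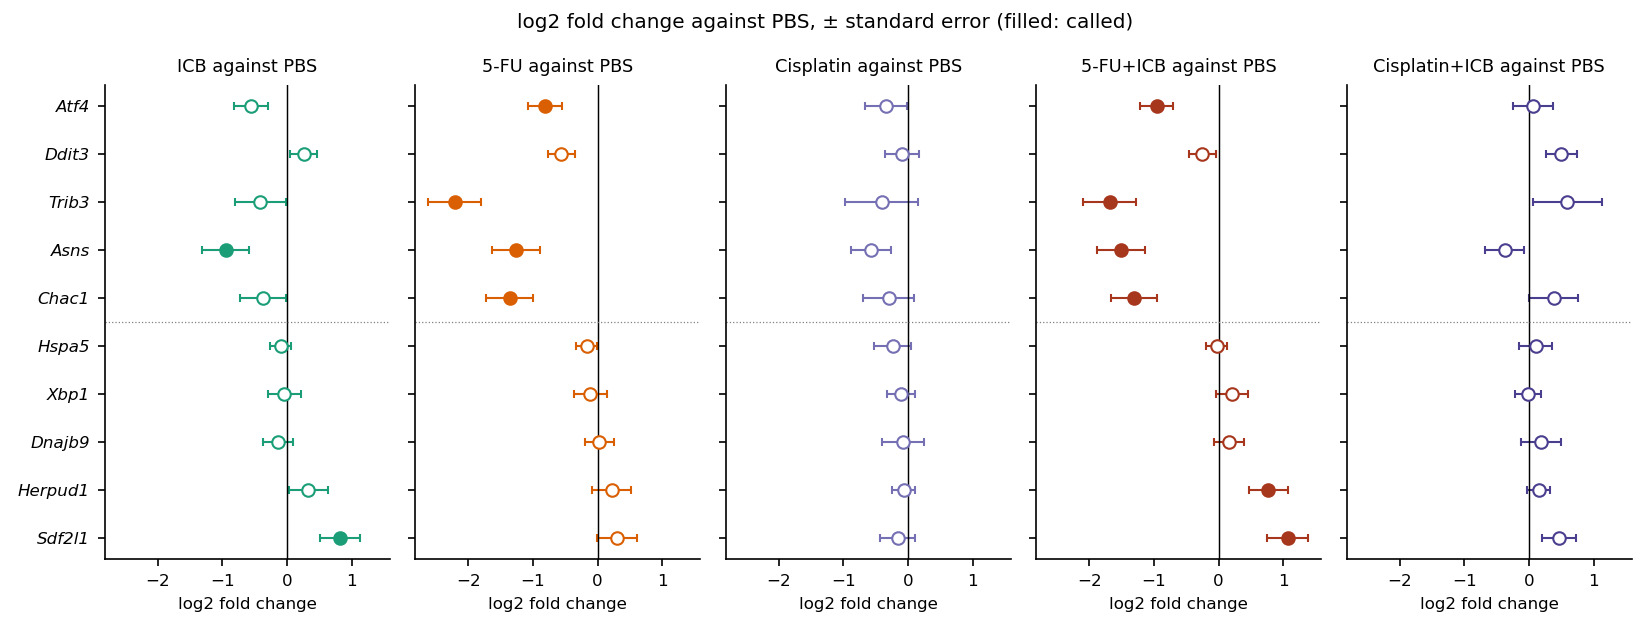
log2 fold change against PBS (x axis) of each gene (y axis) in the 5 treated groups. Points are edgeR estimates, bars their standard errors, and filled points are called. The filled points on the left are Atf4, Trib3, Asns and Chac1 in 5-FU and 5-FU+ICB and Asns in ICB, and those on the right are Sdf2l1 in ICB and Sdf2l1 and Herpud1 in 5-FU+ICB.

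In the ER arm, Sdf2l1 rose with ICB and with 5-FU+ICB and Herpud1 with 5-FU+ICB, while Hspa5, Xbp1 and Dnajb9 were called in no comparison. With ICB alone, 1 member rose (Sdf2l1) and 1 fell (Asns), where 19.0% of all genes were called higher and 18.8% lower, so the share of members called was below that of all genes. The median log2 fold change was -0.12 for the members and -0.03 for all genes.

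Sdf2l1 encodes an ER lumen protein that works with the chaperone BiP. The PBS tumors had 27.6, 40.1, 21.9 and 29.4 CPM, the ICB tumors 44.9, 62.3, 60.3, 36.9 and 57.0 CPM, and the 5-FU+ICB tumors 70.3, 36.1, 57.3, 48.0 and 99.1 CPM. In each treated group 4 of 5 tumors exceeded every PBS tumor, and ICB replicate 4 and 5-FU+ICB replicate 2 did not. Sdf2l1 was 1.77-fold higher with ICB (log2 fold change 0.82 ± 0.31 SE, edgeR adjusted p = 0.0428) and 2.11-fold higher with 5-FU+ICB (1.07 ± 0.32 SE, edgeR adjusted p = 0.0116). The 5-FU+ICB call held without any 1 tumor (0.84 to 1.28). The ICB call was kept in 11 of 19 such fits and lost without PBS replicates 1 (0.80), 3 (0.67) or 4 (0.79), ICB replicates 2 (0.79), 3 (0.77) or 5 (0.80), 5-FU replicate 5 (0.83) or 5-FU+ICB replicate 3 (0.83), and with the replicate block (edgeR adjusted p = 0.0887). With 5-FU alone the tumors had 23.9, 31.4, 63.0, 28.3 and 36.9 CPM and the gene was not called (0.30 ± 0.31 SE).

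Herpud1 encodes a membrane protein of ER-associated degradation. The PBS tumors had 68.5, 67.1, 51.2 and 61.2 CPM and the 5-FU+ICB tumors 125, 60.6, 89.2, 83.0 and 165 CPM, so that 4 of 5 exceeded every PBS tumor. The level was 1.71-fold higher (log2 fold change 0.77 ± 0.30 SE, edgeR adjusted p = 0.0438). The call was lost without 5-FU+ICB replicate 5 (0.54, edgeR adjusted p = 0.132), which holds the 165 CPM, and also without any 1 PBS tumor (0.66 to 0.83), ICB replicate 5 (0.77), 5-FU replicate 5 (0.77) or 5-FU+ICB replicate 1 (0.71), and with the replicate block or only the groups compared (edgeR adjusted p of up to 0.105). With ICB the tumors had 60.7, 87.1, 98.1, 58.2 and 81.7 CPM (0.33 ± 0.30 SE, not called).

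Hspa5 encodes BiP, the main chaperone of the ER lumen and the usual gauge of the unfolded protein response. Its group means were 885 ± 171 CPM in PBS (SD, n = 4), 822 ± 63.3 in ICB (n = 5), 787 ± 102 in 5-FU (n = 5), 748 ± 137 in Cisplatin (n = 4), 865 ± 112 in 5-FU+ICB (n = 5) and 939 ± 471 in Cisplatin+ICB (n = 5). Every treated group overlapped with PBS, and the log2 fold changes against PBS lay between -0.24 (Cisplatin, ± 0.28 SE) and 0.10 (Cisplatin+ICB, ± 0.26 SE). In Cisplatin+ICB replicate 1 had 1766 CPM where the others had 594 to 818, and without it the estimate was -0.21.

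Xbp1 encodes the transcription factor that IRE1 activates by splicing, a step that gene counts do not show. It ranged from 125 to 203 CPM in PBS, from 144 to 185 in ICB, from 129.5 to 204 in 5-FU and from 143 to 353 in 5-FU+ICB. The 353 CPM were those of 5-FU+ICB replicate 5, and the log2 fold change of that group was 0.21 ± 0.25 SE, or -0.11 without that tumor. Dnajb9, a co-chaperone of BiP that restrains IRE1, ranged from 30.3 to 55.3 CPM in PBS and from 34.5 to 73.9 in 5-FU+ICB, with a log2 fold change of 0.16 ± 0.23 SE, or -0.06 without 5-FU+ICB replicate 5. Dnajb9 shares a stretch of at least 100 bases at 95% identity or more with Gm6568, and the other 9 members share none with another gene of GENCODE M21.

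Cell type markers also differed between the groups, and the ranges below are for PBS, ICB and the 5-FU groups. With Cisplatin+ICB against PBS, where no member was called, 4 of the 5 T cell genes were called higher. The T cell list (5 of 5 genes above the filter, none at 0 in every tumor) summed to 19.6 to 26.3 CPM in PBS tumors, 135 to 508 in ICB, 29.9 to 339 in 5-FU and 38.4 to 1011 in 5-FU+ICB. The macrophage list (6 of 6) summed to 1349 to 2059 CPM in PBS, 2802 to 7724 in ICB, 1811 to 6221 in 5-FU and 1460.5 to 6605 in 5-FU+ICB. The plasma cell and B cell list (10 of 10, among them Xbp1) summed to 288 to 372 CPM in PBS and 277 to 383 in ICB. It summed to 251 to 454 CPM in 5-FU and 285 to 1988 in 5-FU+ICB, and the 1988 CPM were those of replicate 5. Of the 9 genes tested in the fit, 2 were called higher with ICB, 1 with 5-FU and 5 with 5-FU+ICB. The list medians were 0.98, 1.91 and 3.76 on the log2 scale. The fibroblast list (6 of 6) summed to 4826 to 11887 CPM in PBS and 13198 to 20873 in 5-FU, with 5082 to 9928 in ICB and 5308 to 16423 in 5-FU+ICB, and 4 of its genes were called higher with 5-FU, 2 with 5-FU+ICB and 0 with ICB. The proliferation list (5 of 5) summed to 1229 to 1759.5 CPM in PBS, 477 to 1341 in ICB, 684 to 1430.2 in 5-FU and 435 to 1692 in 5-FU+ICB, and 3 of its genes were called lower in each of the 3 treatments. The hypoxia list (6 of 6) summed to 193 to 262 CPM in PBS, 231 to 419.8 in ICB, 102 to 149 in 5-FU and 137 to 195 in 5-FU+ICB, with 1 gene called higher with ICB and 3 lower with each of 5-FU and 5-FU+ICB. The bone cell list (3 of 5 above the filter, 1 gene at 0 in every 5-FU+ICB tumor) summed to 3896 to 5837 CPM in PBS, 1081 to 2012 in 5-FU and 322 to 2454 in 5-FU+ICB, without overlap with PBS. In ICB this list summed to 1352 to 4089.8 CPM, which overlapped with PBS. The endothelial list (4 of 4) summed to 62.9 to 123 CPM in PBS and 126 to 259 in ICB. It summed to 128 to 294 CPM in 5-FU and 150.4 to 616 in 5-FU+ICB. The neutrophil list (4 of 4) summed to 9.11 to 17.9 CPM in PBS and 59.1 to 164 in ICB. It summed to 14.5 to 63.2 CPM in 5-FU and 8.06 to 71.6 in 5-FU+ICB. The part of these cell types and states in the member results was not tested.

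Without 5-FU+ICB replicate 5, Atf4, Trib3, Asns, Chac1 and Sdf2l1 remained called in 5-FU+ICB against PBS, that is 5 members in place of 6. In 5-FU against PBS the same omission gave 5 members in place of 4, Ddit3 being added. ICB against PBS kept 2.

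Cisplatin changed none of the 10 members past the threshold. None was called in Cisplatin against PBS, where edgeR called 0% of all genes. None had an unadjusted p under 0.05, and DESeq2 called 0 members and 3 genes higher and 1 lower of 35030. All 10 estimates were below 0, with a median log2 fold change of -0.20 beside -0.01 over all genes, but that of Dnajb9 turned without PBS replicate 2 or Cisplatin replicate 1 and that of Sdf2l1 without PBS replicate 2. Asns was the 1 member with Cisplatin tumors entirely below PBS, where 1.84% of all genes were, at 69.3, 133, 121 and 96.7 CPM (log2 fold change -0.57 ± 0.31 SE, edgeR adjusted p = 1.00). Trib3 was at 8.25, 17.5, 12.7 and 12.1 CPM (-0.41 ± 0.56 SE), and its highest tumor lay within the PBS range.

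With Cisplatin+ICB against PBS no member was called, where 4.70% of all genes were called higher and 1.40% lower. At an unadjusted p under 0.05 there were 0 members, and DESeq2 called 0, beside 1854 genes higher and 302 lower of 21321. Trib3 was at 61.0, 29.9, 8.99, 20.3 and 6.26 CPM, so that 2 tumors were below and 3 above the whole PBS range. Chac1 was at 13.6, 22.4, 8.22, 14.4 and 7.09 CPM and Ddit3 at 28.6, 25.1, 13.6, 22.8 and 13.6 CPM. In all 3 genes replicates 1, 2 and 4 were above every PBS tumor and replicates 3 and 5 were not. Still 0 members were called without replicate 1, where the calls over all genes rose as given above. Over all genes 0% were called without PBS replicate 1, 3 or 4, and 1.40%, 8.91% and 2.04% without Cisplatin+ICB replicates 2, 3 and 5, with 0 members in each. Without Cisplatin+ICB replicate 4 there were 236 higher and 30 lower calls, again with 0 members. Without replicate 1 Trib3 went from a log2 fold change of 0.59 to 0.03, Atf4 from 0.06 to -0.27 and Dnajb9 from 0.19 to -0.22.

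Adding ICB to a chemotherapy, or a chemotherapy to ICB, changed no member past the threshold. In 5-FU+ICB against 5-FU, 0 members were called beside 0.0112% of all genes. Sdf2l1 was the 1 member with an unadjusted p under 0.05 (log2 fold change 0.78 ± 0.29 SE, edgeR adjusted p = 0.215). DESeq2 called 0 members too, but 447 genes higher and 92 lower of 18134 with an adjusted p. Without 5-FU+ICB replicate 2 the share of all genes was 10.9% and without 5-FU replicate 3 it was 3.58%, with 1 member called in each. In 5-FU+ICB against ICB, 0 members were called beside 0.229% of all genes, and 3 had an unadjusted p under 0.05: Trib3 (-1.28 ± 0.39 SE, edgeR adjusted p = 0.190), Chac1 (-0.94 ± 0.34 SE) and Ddit3 (-0.50 ± 0.20 SE). DESeq2 called 1 of them, Trib3, among 172 genes higher and 155 lower of 19475. With 1 tumor left out the share of all genes lay between 0.00562% (without ICB replicate 4) and 0.468% (without 5-FU+ICB replicate 4), with 0 members called. In Cisplatin+ICB against ICB, 0 members were called, 0% of all genes were, and 2 members had an unadjusted p under 0.05. In Cisplatin+ICB against Cisplatin, 0 members were called, 0% of all genes were, and 2 members (Sdf2l1 and Ddit3) had an unadjusted p under 0.05. In that comparison 11.9% of all genes were called without Cisplatin+ICB replicate 1 and 3.04% without Cisplatin+ICB replicate 3, still with 0 members. DESeq2 called 0 members in both comparisons of Cisplatin+ICB, with 714 genes higher and 69 lower of 18622 against Cisplatin, and 18 and 34 of 19975 against ICB.

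The interaction of a chemotherapy and ICB, the difference between the effect of the combination and the sum of its parts, was called for no member. For 5-FU, 0.0893% of all genes were called, 0 members had an unadjusted p under 0.05, and the estimate with the lowest p was that of Trib3 (0.94 ± 0.56 SE on the log2 scale, edgeR adjusted p = 0.313). The share of all genes was 9.29% without PBS replicate 3, 5.56% without PBS replicate 4, 5.36% without 5-FU+ICB replicate 4 and 0.456% without 5-FU replicate 4, with 0 members called in each. For cisplatin, 0% of all genes were called and 2 members had an unadjusted p under 0.05, Asns (1.15 ± 0.42 SE) and Atf4 (0.96 ± 0.44 SE), both with an edgeR adjusted p of 0.564. DESeq2 called 0 members in either, but 904 genes higher and 689 lower of 16114 in the interaction with 5-FU, and 0 and 1 of 35030 in that with cisplatin.

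The chemotherapies were also set against each other in a model of all 28 tumors. In 5-FU against Cisplatin, 0 members were called beside 0.362% of all genes. The 5-FU tumors lay entirely below the Cisplatin tumors for Trib3 (log2 fold change -1.79 ± 0.50 SE, edgeR adjusted p = 0.105), Chac1 (-1.05 ± 0.36 SE) and Ddit3 (-0.47 ± 0.22 SE), each with an unadjusted p under 0.05. That is 3 of 10 members, where 7.22% of all genes were entirely lower. DESeq2 called 1 member, Trib3, among 487 genes higher and 176 lower of 18067. With only the groups compared, edgeR called Trib3 and Chac1, among 509 genes higher and 434 lower of 16786. In the model of all tumors edgeR called Trib3 once Cisplatin+ICB replicate 1 was left out of the model, when the calls over all genes rose to 524 higher and 702 lower from 17 and 50. With any other 1 tumor left out, 0.00528% (without Cisplatin replicate 2) to 0.622% of genes (without 5-FU+ICB replicate 2) and 0 members were called.

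In 5-FU+ICB against Cisplatin+ICB, 2 members fell, Trib3 and Chac1, and 0 rose, where 0.194% of all genes were called lower and 0.103% higher. Trib3 was 4.81-fold lower (log2 fold change -2.27 ± 0.49 SE, edgeR adjusted p = 0.0401) and Chac1 3.24-fold lower (-1.70 ± 0.35 SE, edgeR adjusted p = 0.0349). All 5-FU+ICB tumors were below all Cisplatin+ICB tumors for Chac1, where 0.923% of all genes were entirely lower, and the Trib3 levels overlapped. The calls were not stable. Without Cisplatin+ICB replicate 1, Trib3 was at -1.64 (edgeR adjusted p = 0.121) and Chac1 at -1.68 (0.0762). Without 5-FU+ICB replicate 5 they were at -2.13 (0.171) and -1.63 (0.141). Both calls were also lost without 5-FU+ICB replicate 1 (-2.13 and -1.54) or 3 (-2.23 and -1.68), or Cisplatin+ICB replicate 2 (-2.20 and -1.42) or 4 (-2.34 and -1.66). That of Trib3 was lost as well without any 1 PBS tumor, ICB replicate 1 or 5, 5-FU replicate 1 or 4, or Cisplatin replicate 2 or 3 (-2.27 to -2.26). The calls over all genes moved with them, from 0.00541% of genes without 5-FU+ICB replicate 1 to 11.6% without 5-FU+ICB replicate 2, when 6 members were called, and 6.10% without Cisplatin+ICB replicate 5, when 5 were.

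The wider pathway was followed through 8 lists of other genes. Among 26 targets and partners of ATF4 and CHOP, 1 rose and 8 fell with 5-FU, 3 rose and 11 fell with 5-FU+ICB, and 3 rose and 7 fell with ICB. The shares of all genes called lower were 13.0%, 18.7% and 18.8%, and those called higher 9.98%, 21.9% and 19.0%, and every list count below reads against these. The list medians were -0.44, -0.46 and -0.44 on the log2 scale, beside -0.01, -0.04 and -0.03 over all genes. With ICB the 7 became 4 without ICB replicate 5. Among those that fell were Cth, which makes cysteine from cystathionine, and Phgdh and Psph, which make serine. Cth went from 8.63 ± 2.04 CPM in PBS (SD, n = 4) to 1.95 ± 0.528 with 5-FU (n = 5, log2 fold change -2.15 ± 0.38 SE, edgeR adjusted p = 0.00282) and 1.78 ± 1.00 with 5-FU+ICB (n = 5, -2.28 ± 0.38 SE, edgeR adjusted p = 0.000709). Phgdh fell by 1.42 on the log2 scale with ICB and by 1.38 with 5-FU+ICB, and Psph fell by 1.18 with ICB. Ddit4, an inhibitor of mTORC1 signalling, fell by 1.51 with 5-FU.

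Not all of that list moved down. Slc7a11, the cystine transporter subunit, rose by 3.03 on the log2 scale with ICB (edgeR adjusted p = 0.00104) and by 2.77 with 5-FU+ICB (edgeR adjusted p = 0.00173). It was at 6.20 to 12.4 CPM in PBS tumors and 30.9 to 129 in ICB tumors. Atf3, a stress-induced transcription factor also used by activated immune cells, rose by 2.93 with ICB and by 2.44 with 5-FU+ICB. With Cisplatin 0 of the 26 were called. With Cisplatin+ICB 2 rose and 0 fell, but 4 rose and 4 fell without Cisplatin+ICB replicate 1, and 0 or 1 rose without any 1 PBS tumor or Cisplatin+ICB replicate 2, 4 or 5. In 5-FU+ICB against Cisplatin+ICB 2 of the list fell, among them Gdf15, a secreted stress cytokine, which was 2.15 lower on the log2 scale (edgeR adjusted p = 0.0347, all tumors apart). The 2 became 0 without 5-FU+ICB replicate 1 or 5 or Cisplatin+ICB replicate 1 or 2, 1 without 5-FU+ICB replicate 3 or Cisplatin+ICB replicate 4, 10 without 5-FU+ICB replicate 2 and 8 without Cisplatin+ICB replicate 5.

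The 12 aminoacyl-tRNA synthetases, several of them ATF4 targets, had 0 higher and 3 lower calls with 5-FU, 1 and 6 with 5-FU+ICB and 1 and 3 with ICB. The 3 lower calls with 5-FU became 1 without PBS replicate 1 and 5 without 5-FU replicate 2, and the 6 with 5-FU+ICB became 4 without its replicate 5. Sars, the seryl-tRNA synthetase, fell by 0.79 with 5-FU and by 0.69 with 5-FU+ICB, and Gars, the glycyl-tRNA synthetase, by 0.73 with 5-FU and by 0.68 with ICB. Mars fell by 0.76 with ICB. Wars, the tryptophanyl-tRNA synthetase, which interferon gamma induces, rose by 1.68 with ICB, from 84.5 ± 8.10 CPM (SD, n = 4) to 266 ± 87.9 (n = 5), and by 1.08 with 5-FU+ICB (edgeR adjusted p = 5.64e-05 and 0.00101).

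Among the 17 sensors and eIF2 control genes, 1 rose and 4 fell in each of ICB, 5-FU and 5-FU+ICB against PBS. With 5-FU, 0 rose and 3 fell without PBS replicate 1, and 0 rose and 1 fell without PBS replicate 2. The gene that rose was Eif2ak3 (PERK), at 0.79 ± 0.18 SE with ICB, 0.68 ± 0.18 with 5-FU and 0.80 ± 0.18 with 5-FU+ICB on the log2 scale (edgeR adjusted p = 0.00251, 0.0129 and 0.00243). Its tumors had 12.2 to 28.6 CPM in PBS and 32.2 to 39.6 in ICB. The other eIF2 kinases Eif2ak1, Eif2ak2 and Eif2ak4, the sensors Ern1 (IRE1) and Atf6, and Ppp1r15a, the eIF2 phosphatase subunit GADD34, were not called in these comparisons, Eif2ak1 with ICB passing on the adjusted p but not on its size (0.30). Their estimates lay between -0.33 (Eif2ak4, 5-FU+ICB) and 0.51 (Ern1, 5-FU). Eif2s1, the eIF2 subunit that these kinases phosphorylate, fell by 0.97 with ICB and by 0.82 with 5-FU+ICB, and Eif2b5, of the exchange factor eIF2B, by 0.89 with 5-FU and by 0.82 with 5-FU+ICB.

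Of 16 genes of ER-associated degradation, 4 rose with ICB, 2 with 5-FU and 6 with 5-FU+ICB, and 0 fell in any of the 3. The counts for ICB and 5-FU lie near the shares of all genes called higher. With ICB the 4 became 2 without PBS replicate 1 or 2 or ICB replicate 3 or 5, and with 5-FU the 2 became 0 without PBS replicate 1 and 1 without PBS replicate 2 or 5-FU replicate 3. Sel1l, a scaffold of the degradation complex, rose by 0.77, 0.62 and 0.86 on the log2 scale, and Os9, which recognises misfolded glycoproteins, by 0.66 with ICB and 0.80 with 5-FU+ICB. Without 5-FU+ICB replicate 5 the count in 5-FU+ICB was 4 in place of 6. Derl3, named here after its values were seen, was among the 6 with 0.217 to 23.3 CPM in 5-FU+ICB tumors and 0.122 to 0.237 in PBS. Of 20 ER chaperones and oxidoreductases, 2 rose and 2 fell with ICB, 1 and 2 with 5-FU, and 3 and 0 with 5-FU+ICB, with list medians of -0.08, 0.05 and 0.08, and without PBS replicate 3 or 4 the lower counts became 5 with 5-FU and 2 with 5-FU+ICB. The lower count of 2 with 5-FU was 4 without 5-FU replicate 3 and 1 without PBS replicate 1 or 2 or 5-FU replicate 1, 4 or 5, and that with ICB was 1 without PBS replicate 2. Dnajc3, a co-chaperone of BiP that also inhibits PERK, rose by 0.53 with 5-FU, a call lost without PBS replicate 2 or 5-FU replicate 3 or 5, and by 0.60 with 5-FU+ICB. Ero1l, which oxidises disulfide isomerase, fell by 0.68 with 5-FU and was 0.93 lower on the log2 scale in 5-FU+ICB than in ICB (edgeR adjusted p = 0.0161), a call lost without ICB replicate 4 or 5-FU+ICB replicate 1.

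Of 20 genes of ER translocation and transport none rose in these 3 groups, and 8 fell with ICB, 6 with 5-FU and 4 with 5-FU+ICB. The 6 became 1 without PBS replicate 2, and the 4 became 8 without 5-FU+ICB replicate 5 or PBS replicate 3 and 1 without PBS replicate 2. Ssr3, of the translocon-associated complex, fell by 0.64 with 5-FU and 0.80 with 5-FU+ICB, and Sec61g and Sec61b, subunits of the translocation channel, by 1.06 and 0.98 with ICB. Of 8 genes of the mitochondrial unfolded protein response, 0 rose, and 4, 5 and 4 fell with ICB, 5-FU and 5-FU+ICB. The protease subunit Clpp fell by 0.99 with ICB and 0.84 with 5-FU+ICB, and the chaperonin Hspe1 by 1.23 with ICB. In 5-FU against PBS the 5 became 0 without PBS replicate 2 and 3 without 5-FU replicate 5. Of 8 genes of stress-linked cell death, 2 rose and 2 fell with ICB, 1 and 2 with 5-FU, and 3 and 2 with 5-FU+ICB. The 1 that rose with 5-FU was lost without PBS replicate 1, 2 or 4 or 5-FU replicate 3 or 5. The 2 that fell became 1 with ICB without PBS replicate 1, 3 or 4 or ICB replicate 2 or 3, and with 5-FU without PBS replicate 2. The BH3-only gene Pmaip1 rose by 2.18, 1.39 and 2.52 and Bax fell by 0.68, 0.72 and 0.78 in the 3 comparisons, and Bbc3 fell by 0.95 with 5-FU and 0.76 with 5-FU+ICB.

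**Figure D3:**
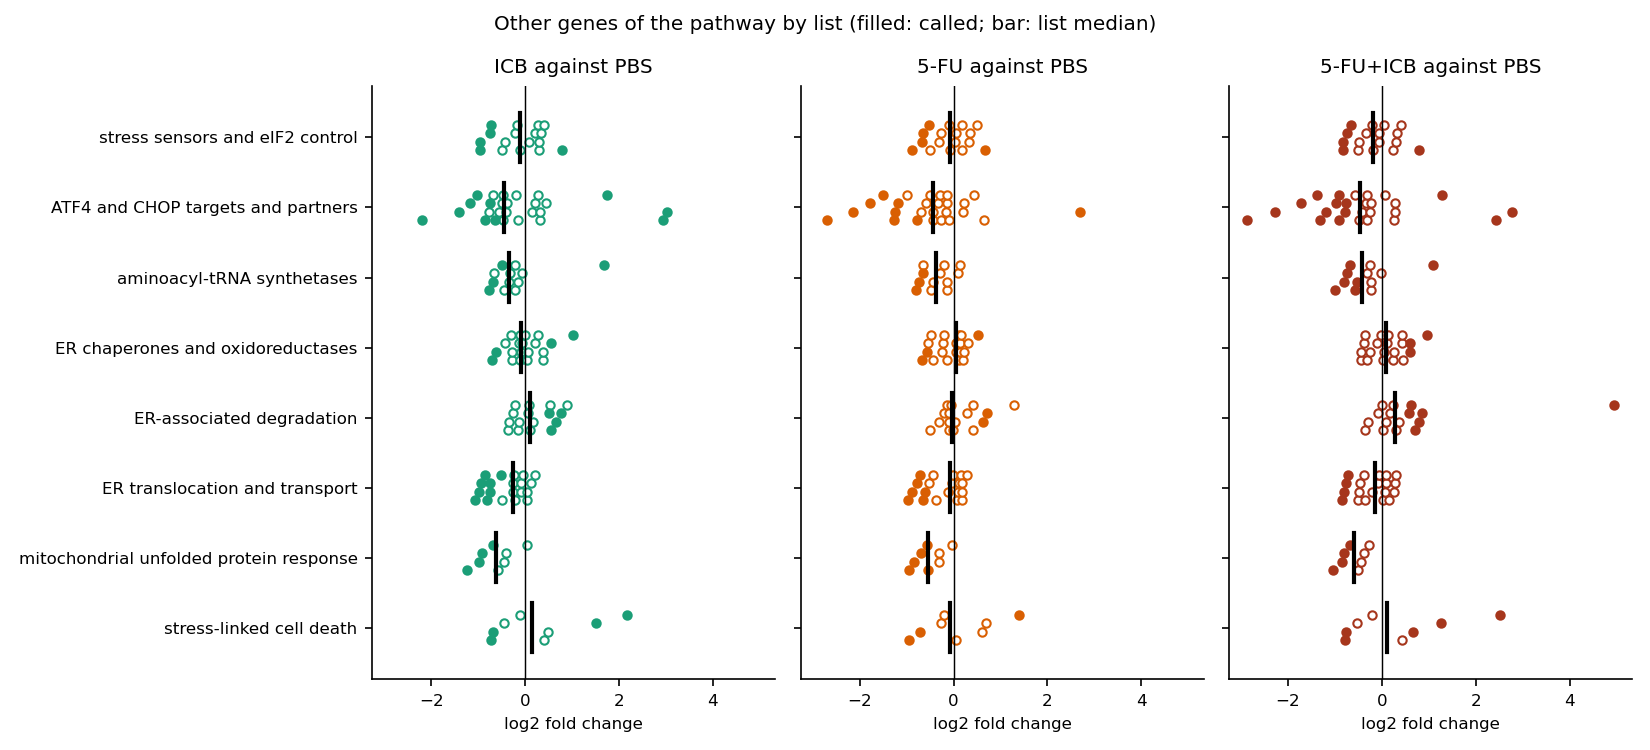
log2 fold change against PBS (x axis) of every gene of the 8 lists (y axis) in ICB, 5-FU and 5-FU+ICB. Each point is a gene, filled points are called, and the black bar is the list median. The ATF4 and CHOP targets have medians of -0.44, -0.44 and -0.46, and no gene of ER translocation or of the mitochondrial response was called higher. The lists and the members were chosen with earlier results of these data known.

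Within the groups, tumors differed in the members in a patterned way. Each group's mean was subtracted from the log2 CPM of its tumors, and the 45 pairs of members were correlated over the 28 tumors, with p from 100000 permutations within groups and Benjamini-Hochberg adjustment over the pairs. All 10 pairs within the ATF4 arm passed, with Pearson r from 0.59 to 0.86 (median 0.79). All 10 pairs within the ER arm passed too, with r from 0.44 to 0.90 (median 0.74). The share of all gene pairs that would pass this test was not computed. Genes outside the lists followed Hspa5 more closely than any member did, with r of up to 0.96 (Anxa7). Of the 25 pairs between the arms 2 passed, with r from -0.58 to 0.55 over all 25 and a median of 0.01. Without Cisplatin+ICB replicate 1 (added after seeing the data) these r ran from -0.64 for Asns and Herpud1 to 0.34 for Hspa5 and Ddit3. The r of Asns with Sdf2l1 went from -0.46 to -0.62 and that with Xbp1 from -0.33 to -0.53. Those of Hspa5 stayed positive, while Atf4, Trib3, Asns and Chac1 had negative r with every other ER arm gene.

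Within the ATF4 arm the highest r was that of Atf4 and Asns (0.86, Spearman rho 0.77, permutation p = 1e-05, the smallest that these permutations can give, adjusted p = 7.5e-05), and it was 0.84 without the 2 tumors farthest from the median of Atf4. Trib3 and Chac1 had r = 0.79 (rho 0.82, permutation p = 0.00013, adjusted p = 0.000418), and 0.91 without the 2 farthest tumors. In the ER arm, Hspa5 and Dnajb9 had r = 0.90 (rho 0.88, permutation p = 1e-05, adjusted p = 7.5e-05), and 0.78 without the farthest tumors, and Herpud1 and Sdf2l1 had r = 0.88 (rho 0.89, the same permutation p), and 0.85 without them. Between the arms, Hspa5 and Ddit3 passed with r = 0.50 (rho 0.34, permutation p = 0.0217, adjusted p = 0.0443), which was 0.28 without the 2 farthest tumors, among them Cisplatin+ICB replicate 1, so this relation rested on them. Asns and Herpud1 passed with r = -0.58 (rho -0.42, permutation p = 0.0122, adjusted p = 0.0275), which was -0.36 without 5-FU+ICB replicates 5 and 1. The tumors share their composition of cells across all genes, and the markers of T cells and B cells were highest in 5-FU+ICB replicate 5.

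**Figure D4:**
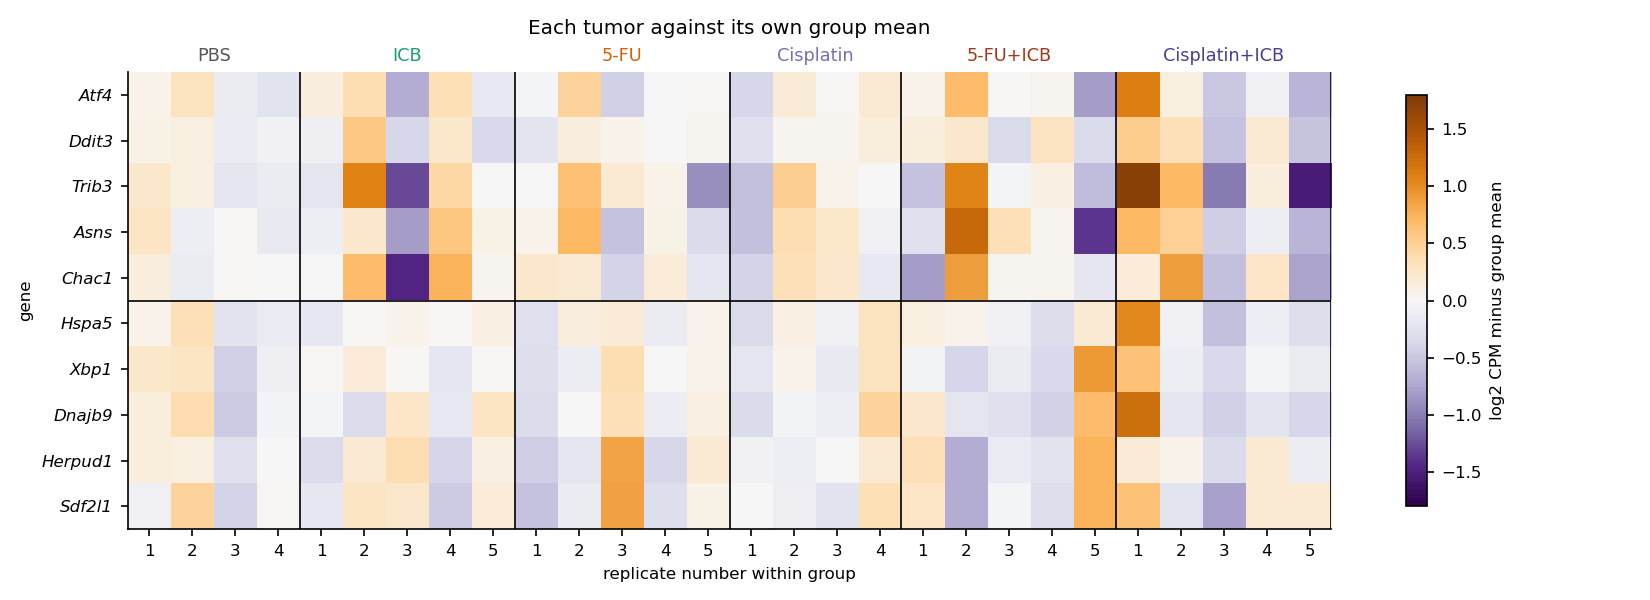
log2 CPM of each gene (y axis) minus the mean of its group, in the 28 tumors (x axis, replicate number within group). Orange is above and purple below the group mean. Cisplatin+ICB replicate 1 is above its group mean in all 10 genes, and 5-FU+ICB replicate 5 is above in the ER arm and below in the ATF4 arm.

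Cisplatin+ICB replicate 1 had 609 CPM of Atf4, 61.0 of Trib3, 28.6 of Ddit3, 1766 of Hspa5 and 103 of Dnajb9, each the highest of the 28 tumors. Its hypoxia list summed to 428 CPM and its bone cell list, which includes Spp1, to 7416 CPM, and its T cell list to 18.6 CPM, where the Cisplatin+ICB median was 316, 2188 and 148 CPM. 5-FU+ICB replicate 5 showed another mix, with the highest Xbp1 (353 CPM), Herpud1 (165 CPM) and Sdf2l1 (99.1 CPM) and the lowest Atf4 (85.2 CPM) and Asns (17.9 CPM) of all tumors. Its skeletal muscle list summed to 5333 CPM and its T cell list to 1011 CPM, both the highest of its group. Their part in the levels of the members was not tested.

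**Figure D5:**
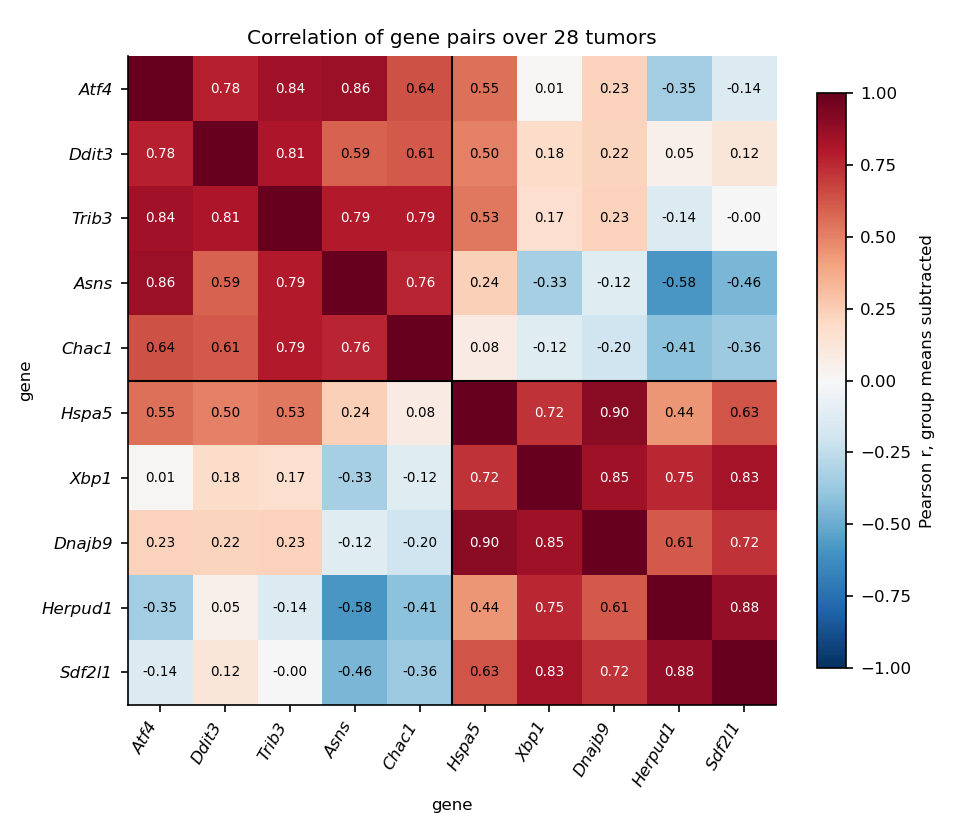
Pearson r of each pair of the 10 genes over the 28 tumors, after subtraction of the group means (both axes list the genes, red is positive and blue negative). The 2 blocks of 10 pairs within an arm hold r from 0.59 to 0.86 and from 0.44 to 0.90, and the 25 pairs between the arms hold r from -0.58 to 0.55. Without Cisplatin+ICB replicate 1 (not drawn) the r between the arms ran from -0.64 to 0.34.

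Among 13334 genes with a mean count of at least 50, those most like Trib3 over the 28 tumors by the same r were Pck2 (0.93), Cth (0.91), Gadd45a (0.88), Atf4 (0.84) and Angptl6 (0.83). Without Cisplatin+ICB replicate 1 their r was 0.90, 0.88, 0.85, 0.77 and 0.76, and Atf4 and Angptl6 then ranked 12 and 15. Those most like Hspa5 were Anxa7 (0.96), Atp6v1e1 (0.95), Psmd8 (0.95), Atp6v1h (0.95) and Ghitm (0.95), and 0.91, 0.89, 0.89, 0.88 and 0.87 without that tumor. None of the 5 genes most like Hspa5 belonged to a pathway list used here.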

How the data were processed

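RNA had been sequenced as 100-base single-end reads from 28 whole AB1-HA tumors in 6 treatment groups. The authors deposited estimated counts per gene in 2 matrices, made with bcl2fastq 2.20.0.422 and kallisto 0.46.0 per the submitters' processing notes, with the GRCm38 build, and summed to genes with tximport. Of the deposited values 23.7% were not whole, and all were rounded. The matrices share the 9 PBS and ICB tumors, with identical values, so these were counted once. Totals were 23541733 to 33950805 counts per tumor, with a median of 28797552. Pseudoalignment divides reads between genes of like sequence by estimation, and strandedness is not given in the sources used here.

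Groups were taken from the sample labels. Mice carried a tumor on 1 flank each, so tumors were taken as separate animals. Genes low in count were removed with filterByExpr, libraries were scaled by TMM, and edgeR 4.0.16 (limma 3.58.1, R 4.3.3) was fitted by quasi-likelihood over all groups of a matrix. Comparisons between the 2 chemotherapies used all 28 tumors in a single fit, and 13 comparisons were made in all. P-values were adjusted by Benjamini-Hochberg over all genes tested, and a call required both an adjusted p below 0.05 and a log2 fold change larger than 0.5 in size, or the adjusted p alone for interactions. The log2 CPM used for plots and correlations had a prior count of 2. The alternatives were DESeq2 1.42.0, its size factors within edgeR, other filters on low counts, a replicate block, other sets of tumors in the fit, no threshold on fold change and each tumor left out in turn. Fits without 5-FU+ICB replicate 5 and Cisplatin+ICB replicate 1 together, the counts for gene lists under the alternatives, and those alternatives for members that were not called, were added after seeing the data.

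Values are named for all 10 members, for Eif2ak1 to Eif2ak4, Ern1, Atf6 and Ppp1r15a, and for up to 2 called genes per direction, list and comparison with the largest fold change, provided that the mean count was 50 or more and the groups did not overlap in the CPM of that fit. Printed CPM come from the scaling of all 28 tumors, on which Sel1l and Eif2ak3 can overlap slightly. The 5 genes most like Trib3 and Hspa5 are named too. The members and lists were chosen with earlier results of these data known. The steps were tested on simulated data: of 200 genes of 17588 changed by a log2 fold of 2 in a simulated 5-FU against PBS comparison, 85.5% were called, and 3.93% of the calls were unchanged genes. Promoters came from RefSeq (GRCm38.p6) and gene models from GENCODE M21. Figures were drawn with matplotlib 3.10.9 under Python 3.11.15.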

Additional observations from a re-analysis of the deposited data

Results flagged for a closer look

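In 4 of 60 combinations of a member and a group, 1 tumor lay farther from the rest than Dixon's 95% limit allows, and chance gives about 1 in 20, or 3.00 here. Hspa5 was at 1766 CPM in Cisplatin+ICB replicate 1, where the other tumors of the group were at 594 to 818 CPM, a gap of 0.809 of the group's range. Dnajb9 was at 103 CPM in the same tumor, with the others at 32.6 to 38.2 CPM (0.920 of the range), and Xbp1 at 253 CPM, with the others at 128 to 161 CPM (0.735). Xbp1 was also at 353 CPM in 5-FU+ICB replicate 5, with the others at 143 to 179 CPM (0.826), the tumor in which the plasma cell and B cell list summed to 1988 CPM against a group median of 331. The part of those cells in the Xbp1 level was not tested. None of these 3 genes was called in any comparison with these tumors included.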

How the results depend on the processing

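None of the 14 called differences of members changed direction under the alternatives run. Of the 116 estimates that were not called, 36 changed sign under at least 1 alternative (added after seeing the data), among them Hspa5, Dnajb9 and Atf4 in Cisplatin+ICB against PBS without replicate 1. The number of members called in ICB against PBS, 2, was 1 with DESeq2's size factors, with no filter on low counts, with a minimum of 10 counts in every tumor or with all 28 tumors in a single model, and 0 to 2 when 1 tumor was left out. In 5-FU against PBS, 4 became 2 with no filter, 3 with all 28 tumors in a single model, 5 with only the groups compared and 2 to 5 with 1 tumor left out, and in 5-FU+ICB against PBS 6 became 5 to 6. In 5-FU+ICB against Cisplatin+ICB, 2 became 5 with DESeq2, 0 with only the groups compared, 0 without both tumors that stood apart (added after seeing the data) and 0 to 6 with 1 tumor left out. Counts of 0 became 1 in 5-FU+ICB against ICB with DESeq2, and 0 to 1 in 5-FU+ICB against 5-FU with 1 tumor left out. In 5-FU against Cisplatin, 0 became 1 with DESeq2, 2 with only the groups compared, 1 without both tumors and 0 to 1 with 1 tumor left out. There the calls over all genes went from 17 higher and 50 lower to 487 and 176 with DESeq2, 509 and 434 with only the groups compared and 739 and 752 without both tumors. The cause was not tested.

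The replicate block gave 0 members in ICB against PBS, with Asns at -0.87 and Sdf2l1 at 0.71, and 5 in 5-FU+ICB against PBS, where Herpud1 was lost at 0.63 (edgeR adjusted p = 0.105). It changed no other member call. The numbers do not pair the tumors: 21 of 66 same-numbered pairs correlated over 0.1 (median -0.02), and 5 of 28 tumors correlated best with their own number. Of all genes, Cisplatin+ICB against PBS called 837 higher and 250 lower, but 89 and 6 with the block, 0 and 0 with only the groups compared and 1854 and 302 with DESeq2. For 5-FU against PBS, 1788 and 2327 became 526 and 299 with all 28 tumors in a single model, and for 5-FU+ICB against Cisplatin+ICB, 19 and 36 became 659 and 961 with DESeq2. Of 45 pair correlations 22 passed, and with a prior count of 0.5 the number was also 22. The lowest count of a member in a tumor was 51.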
